A study of Capra hircus with 9 samples.

Results

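The genes described here are 46 named genes of the cell cycle and of DNA replication, followed in the goat uterus at 3 time points around implantation. A member was taken from the authors' count table where the gene name of a row equalled a listed name, and 45 of the 46 had such a row, among 25671 rows in all. The members fell into 29 mitotic genes and 16 replication genes. HMMR, a hyaluronan receptor that also binds spindle microtubules, had no row of that name. A row named LOC102185463 carries the HMMR gene identifier in the ARS1.2 gene table, and it counted 2.33 ± 0.543, 1.63 ± 0.562 and 1.57 ± 0.493 CPM at days 6, 16 and 19 (SD, n = 3 each), but it was not counted as a member. Levels are given in CPM, the reads of a gene set against the total reads of its library after TMM scaling.

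Poly(A) RNA was sequenced on an Ion Proton from Liaoning Cashmere goats (Capra hircus). The groups were day 6, day 16 and day 19 peri-implantation, with 3 libraries each, and the labels name no treatment or genotype. The event from which the days were counted, the animals' ages and whether the 3 libraries of a day came from separate animals are not given. The p-values therefore reflect how far libraries of a day lay apart, which may be technical. The labels do not agree on the tissue: it is uterus in the tissue field, endometrial epithelium in the title of the series, and testis in the protocol for collection.

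A dividing cell first licenses its replication origins by loading the MCM helicase, then copies its DNA with the help of the sliding clamp PCNA and a supply of deoxynucleotides, and much of this machinery is under E2F control. Mitotic genes come on later, in G2 and M phase, when cyclin B and CDK1 drive entry into mitosis, kinetochores and the spindle checkpoint time chromosome separation, and the anaphase-promoting complex ends mitosis by destroying cyclins. Mitotic transcripts are therefore widely read as markers of dividing cells, whereas some replication proteins, such as PCNA, also serve DNA repair. In the ruminant uterus, glands, surface epithelium, stroma and vessels are all remodelled around implantation.

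Totals ranged between 8712751 and 11074693 counts per library. Markers of epithelium, smooth muscle and stromal fibroblasts were present at 8 of 8 each, those of macrophages, T and NK lymphocytes and endothelium at 7 of 8 each. Of the 8 testis germ cell markers 7 had a row and SYCP3, TNP1 and ACRV1 were at 0 in all libraries, and the 7 together summed to 0.317 to 2.25 CPM per library. Trophoblast markers had 3 of 8 rows (GATA3, ELF5 and HAND1), summing to 1.65 to 5.24 CPM. Smooth muscle markers summed to 8607 CPM in replicate 1 of day 6, against 19118 to 38838 CPM in the other libraries.

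The median level of mitotic genes was lower at day 16 than at day 6, and the medians of replication genes lay closer together. For each library, the class median was taken over members of log2 CPM (prior count 2) centred on the member's mean over the 9 libraries. The mitotic median was 1.05, -0.06 and 1.52 in the day 6 libraries, -0.70, -0.69 and -1.06 in the day 16 libraries, and 0.30, 0.25 and -0.54 in the day 19 libraries. Each day 16 library lay below every library of the other days. The replication median was 0.19, -0.14 and 0.16 at day 6, -0.17, -0.22 and -0.17 at day 16, and -0.02, 0.27 and 0.09 at day 19, a much narrower spread. For the replication median too, each day 16 library lay below every library of the other days, though only just below replicate 2 of day 6. The mitotic median minus the replication median averaged 0.77 ± 0.64, -0.63 ± 0.23 and -0.11 ± 0.48 at days 6, 16 and 19 (SD, n = 3 each). In summed CPM, the mitotic members gave 232 ± 83.8, 73.3 ± 7.16 and 121 ± 12.4 at days 6, 16 and 19, and 170 ± 71.8, 70.3 ± 7.92 and 119 ± 11.7 without CCNB1. The replication members summed to 485 ± 38.1, 432 ± 36.5 and 535 ± 80.3 CPM. No test was run on class medians or sums, because the members were chosen with earlier results of these libraries known.

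**Figure D1:**
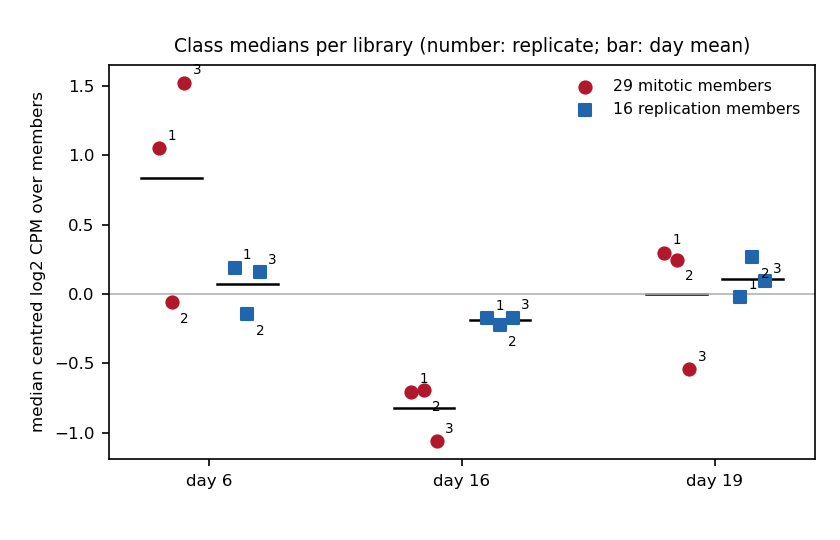
Median over members of centred log2 CPM (vertical axis) in each library by day (horizontal axis), for 29 mitotic members (red circles) and 16 replication members (blue squares). Small numbers are replicate numbers and bars are day means. The mitotic medians of the 3 day 16 libraries, -0.70, -0.69 and -1.06, lie below all others, and the mitotic median of day 6 replicate 2, -0.06, lies apart from 1.05 and 1.52. The replication medians of day 16 also lie below the replication medians of the other days, by a narrow margin.

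Replicate 2 of day 6 stood apart from its day for these genes. It was the lowest of the 3 day 6 libraries for 27 of 29 mitotic members (93.1%) and for 14 of 16 replication members (87.5%), against 35.5% of all genes tested. Over mitotic members, the median ratio of replicate 1 to replicate 2 was 2.34 and that of replicate 3 to replicate 2 was 2.88. Most mitotic members therefore had a wide spread at day 6, and the highest of the 9 libraries was replicate 3 of day 6 for 18 of 29 and replicate 1 of day 6 for 6 of 29. At day 19, replicate 1 differed from the others in ribosomal protein reads, which took 2.80% of its counts, against 7.45% and 6.40% in replicates 2 and 3 and 4.15% to 4.89% in the libraries of the earlier days. It was the highest of its day for 13 of 29 mitotic members (44.8%), close to the 43.9% of all genes tested. Over the counts of all genes, the chi-square per degree of freedom between replicate 1 of day 19 and the other libraries of its day was 140 and 124, and that between it and the day 16 libraries was lower, at 81.5, 48.2 and 84.1. Between replicates 2 and 3 of day 19 it was 22.6. The comparisons with day 19 are therefore given with and without replicate 1.

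**Figure D2:**
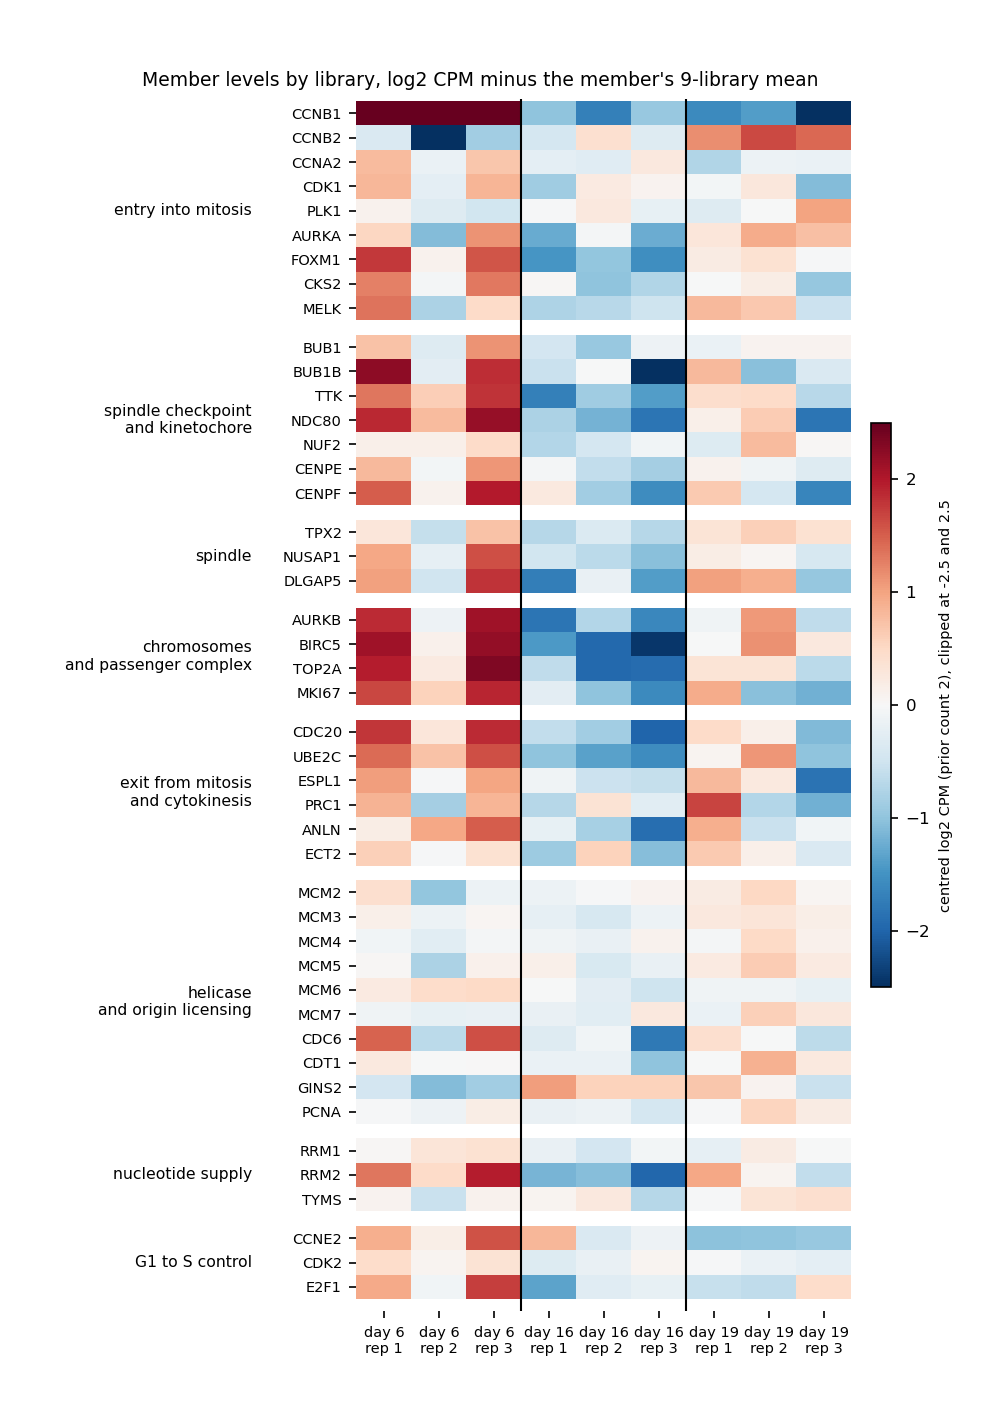
Heat map of the 45 members (vertical axis, grouped by role) in the 9 libraries (horizontal axis), coloured by log2 CPM minus the member's mean over the 9 libraries. Red is above and blue below that mean; mitotic roles fill the upper 29 lines, where replicates 1 and 3 of day 6 are mostly red and the day 16 libraries mostly blue, while most of the 16 replication lines below stay pale.

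Day 16 was compared with day 6 in edgeR's quasi-likelihood test, fitted to all 9 libraries, with Benjamini-Hochberg adjustment over 16098 genes and calls at an adjusted p under 0.05. Of the 28 mitotic members tested, 9 fell at day 16 (32.1%) and 0 rose, where 3.74% of all genes tested fell and 5.12% rose. At an unadjusted p under 0.05 there were 18 lower and 0 higher, where 9.68% of all genes were lower and 11.5% higher. DESeq2 called 13 mitotic members lower and 0 higher, where it called 6.21% of all genes lower and 7.92% higher. The median log2 fold change of mitotic members was -1.67 (quartiles -2.83 and -0.82), with 26 of 28 negative, and that of all genes tested was close to 0.00, with 50% negative. Every day 16 library lay below every day 6 library for 13 of 28 mitotic members (46.4%), against 18.8% of all genes, and no mitotic member lay above in every library, against 19.9%. FOXM1 was too low to test. TTK, NDC80, AURKB and UBE2C would not have passed the low-count filter on the libraries of days 16 and 19, so these 4 had to be higher at day 6 to be tested. MELK, BUB1B, CENPE and DLGAP5 reached the filter's cutoff in 2 day 6 libraries each and in too few later ones. They too were tested only with the help of day 6. The counts, signs and medians above therefore describe the members tested and not all members. With 1 library left out, 4, 10 and 2 mitotic members were called lower without replicate 1, 2 or 3 of day 6, and 3, 4 and 3 without replicate 1, 2 or 3 of day 16, when 1.74% to 2.26% of all genes were called lower. Without replicate 1 of day 19, 12 mitotic members were called lower, when 9.67% of all genes were. The counts without replicate 2 of day 6, replicate 2 or 3 of day 16 or replicate 1 of day 19 include FOXM1. FOXM1 entered those fits only through day 6.

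Summed markers of stromal fibroblasts were also lower at day 16, at 18173 to 22588 CPM, against 29193 to 32234 CPM at day 6, and stood at 19194 to 28543 CPM at day 19. Endothelial markers summed to 1102 to 1384 CPM at day 16, against 836 to 1044 CPM at day 6. Epithelial markers overlapped, at 1326 to 1424 CPM at day 16, against 999 to 1349 CPM at day 6. The part of these shifts in the fall of the mitotic members was not tested. In RNA from tissue, fewer cells of a type and less RNA per cell cannot be told apart.

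Among the genes of entry into mitosis, CCNB1 was the member that fell at day 16, and CCNB2 did not fall. CCNB1 encodes cyclin B1, which activates CDK1 at the onset of mitosis. It had 69.8, 47.9 and 68.4 CPM at day 6, 3.48, 2.05 and 3.61 CPM at day 16, and 2.23, 2.60 and 1.06 CPM at day 19. Day 6 stood far above both later days with no overlap, and the log2 fold change at day 16 against day 6 was -4.34 (SE 0.36, edgeR adjusted p = 0.000211). The call held without each of the 9 libraries in turn, with changes of -4.49 to -4.13 and adjusted p of 4.26e-05 to 0.00202. Reads of CCNB1 may be split with 3 similar rows, the pseudogenes LOC102190914 and LOC102169115 and the cyclin-B1-like noncoding RNA LOC102187875. The 4 rows together summed to 84.5 ± 16.0, 3.95 ± 1.06 and 2.86 ± 1.14 CPM at days 6, 16 and 19 (SD, n = 3 each), so the fall was there for the sum too.

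CCNB2 encodes cyclin B2, the partner of CDK1 found mainly at the Golgi membranes. It counted 4.18, 0.721 and 2.92 CPM at day 6, 4.0, 7.29 and 4.33 CPM at day 16, and 12.5, 17.8 and 15.2 CPM at day 19. Its day 16 and day 6 libraries overlapped, and the change of 0.98 (SE 0.51) did not pass the test (edgeR adjusted p = 0.326). The number of CCNB1 reads per CCNB2 read, which is not corrected for transcript length, was 16.7, 66.4 and 23.4 at day 6, 0.868, 0.281 and 0.833 at day 16, and 0.178, 0.146 and 0.0694 at day 19. The 3 days did not overlap in this ratio, and it was lower at each later day.

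The other genes of entry into mitosis did not pass edgeR's test at day 16 against day 6. PLK1, the polo-like kinase that promotes spindle assembly and mitotic exit, averaged 16.8 ± 2.82 CPM at day 16, against 14.3 ± 3.16 CPM at day 6 (SD, n = 3 each), a log2 change of 0.24. CCNA2 encodes cyclin A2, which acts in S phase and early mitosis, and had a log2 change of -0.58 with overlapping libraries. CDK1 (-0.71), AURKA (-1.37), which matures centrosomes, CKS2 (-1.57), a CDK-binding subunit, and MELK (-1.54), a kinase of proliferating cells, had adjusted p between 0.11 and 0.49 in edgeR, and DESeq2 called CKS2 lower (adjusted p 0.0415). FOXM1 encodes the forkhead factor that activates many of these mitotic genes. It had 29, 7 and 24 reads at day 6, 1, 2 and 1 reads at day 16, and 8, 9 and 6 reads at day 19. Summed over libraries, 4 reads at day 16 against 60 at day 6 gave a ratio of 0.0698 per unit of library size (95% exact interval 0.0184 to 0.188, counting error only). With no low-count filter, edgeR called FOXM1 lower at a fitted change of -3.67 (adjusted p = 0.0107). It also passed the filter and was called lower without replicate 2 of day 6, replicate 2 or 3 of day 16, or any replicate of day 19. FOXM1 reached the filter's cutoff in 2 day 6 libraries and in 0 libraries of days 16 and 19. It therefore entered these fits through day 6 and had to be higher there to be tested, so these calls are a description.

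Kinetochore and checkpoint genes had a median log2 change of -2.03 at day 16. All 7 were negative and 2 were called, where 50% of all genes were negative and 3.74% fell. Both called genes, TTK and NDC80, would not have passed the low-count filter on the libraries of days 16 and 19. They had to be higher at day 6 to be tested, and their count is a description. BUB1B and CENPE also passed only with their day 6 libraries, so the signs and the median are a description too. TTK encodes MPS1, the kinase that switches on the spindle checkpoint. Its levels were 2.32, 1.34 and 3.31 CPM at day 6, 0.105, 0.342 and 0.180 CPM at day 16, and 1.17, 1.2 and 0.423 CPM at day 19. Day 16 lay below all other libraries and TTK fell by 3.42 on the log2 scale (SE 0.66, edgeR adjusted p = 0.0113). NDC80 encodes the outer kinetochore protein that grips microtubules. It had 26, 10 and 31 reads at day 6 and 2, 1 and 0 reads at day 16, and 6, 9 and 0 at day 19. Its fitted change was -4.23 (SE 1.08, edgeR adjusted p = 0.0392), and from 3 reads at day 16 against 67 at day 6 the ratio was 0.0469 per unit of library size (95% exact interval 0.00943 to 0.143). The 0 reads in replicate 3 of day 16 allow a level of up to 0.270 CPM.

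The call of TTK was lost without replicate 3 of day 6 (edgeR adjusted p = 0.0545), replicate 1 of day 16 (0.0584) or replicate 3 of day 16 (0.0516). NDC80 lost its call without any of the 6 libraries of these days (0.0617 to 0.138), with fitted changes of -5.09 without replicate 1 and -3.61 without replicate 3 of day 16. NUF2, the partner of NDC80 in the same complex, averaged 1.78 ± 0.446 CPM at day 16, against 2.93 ± 0.420 CPM at day 6, and its change of -0.71 was not called although the libraries did not overlap. The checkpoint kinase BUB1 was not called at a change of -1.17, nor was BUB1B, which encodes the checkpoint protein BUBR1, at -2.70. CENPE, a kinetochore motor, at -1.37 and CENPF, a kinetochore protein of G2 cells, at -2.03 were not called either. Their adjusted p in edgeR lay between 0.136 and 0.152, and DESeq2 called CENPF lower (adjusted p 0.0397).

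Spindle genes were represented by TPX2, NUSAP1 and DLGAP5. NUSAP1, a protein that bundles spindle microtubules at chromosomes, measured 7.52, 3.19 and 11.8 CPM at day 6, 2.63, 2.28 and 1.71 CPM at day 16, and 4.27, 3.89 and 2.75 CPM at day 19. All day 16 libraries lay below all others, and NUSAP1 fell by 1.76 on the log2 scale (SE 0.47, edgeR adjusted p = 0.0474). The call was lost without replicate 1 or 3 of day 6, any replicate of day 16, or replicate 2 or 3 of day 19 (edgeR adjusted p = 0.0561 to 0.2). TPX2, the activator of Aurora A at the spindle, had 12.7, 6.69 and 17.3 CPM at day 6, 6.21, 7.97 and 6.13 CPM at day 16, and 13.1, 15.6 and 13.4 CPM at day 19. Only its day 16 and day 19 libraries were fully apart, and the day 16 change of -0.85 was not called. DLGAP5, which stabilises kinetochore fibres, was at -2.55 without a call (edgeR adjusted p = 0.14).

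All 4 genes of mitotic chromosomes and the chromosomal passenger complex were lower in every day 16 library than in every day 6 library, as were 18.8% of all genes. Of the 4, 3 were called, where 3.74% of all genes fell. AURKB could pass the low-count filter only through day 6, so these counts are a description. BIRC5 encodes survivin, which targets the passenger complex to centromeres. It had 10.9, 2.57 and 11.5 CPM at day 6, 0.737, 0.456 and 0.270 CPM at day 16, and 2.33, 5.39 and 2.86 CPM at day 19. BIRC5 fell by 4.08 on the log2 scale at day 16 (SE 0.69, edgeR adjusted p = 0.00623), and the call held without each library in turn (adjusted p 0.0032 to 0.0341). AURKB, the kinase of the same complex, had 5.11, 1.13 and 6.14 CPM at day 6, 0.211, 0.683 and 0.270 CPM at day 16, and 1.17, 2.90 and 0.740 CPM at day 19. Its change was -3.40 (SE 0.82, edgeR adjusted p = 0.0307). This call was lost without replicate 1 or 3 of day 6 or any replicate of day 16 (0.0635 to 0.121), and without replicate 2 of day 16 the change was -4.03.

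TOP2A encodes topoisomerase II alpha, which untangles sister chromosomes. It counted 20.1, 5.87 and 26.0 CPM at day 6, 3.16, 1.14 and 1.17 CPM at day 16, and 6.41, 6.39 and 3.07 CPM at day 19. Day 16 and day 6 did not overlap, and the change was -3.25 (SE 0.63, edgeR adjusted p = 0.0121). Without replicate 3 of day 6, replicate 2 of day 16 or replicate 3 of day 16 the adjusted p was 0.0519, 0.0606 and 0.0533, and without replicate 1 of day 16 the change was -3.89. MKI67, the Ki-67 antigen that coats mitotic chromosomes, had 20.8, 9.58 and 24.5 CPM at day 6, 5.27, 3.08 and 1.98 CPM at day 16, and 12.2, 3.00 and 2.64 CPM at day 19. Its change of -2.41 (SE 0.65) lay at the threshold, with an edgeR adjusted p of 0.0503 here and of 0.00196 in DESeq2.

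Genes of mitotic exit and cytokinesis had a median log2 change of -1.60 at day 16. All 6 were negative and 2 were called, where 50% of all genes were negative and 3.74% fell. Of the 2, UBE2C could pass the low-count filter only through day 6, so the count is a description. CDC20, the activator of the anaphase-promoting complex, had 7.52, 2.57 and 7.99 CPM at day 6, 1.26, 1.03 and 0.361 CPM at day 16, and 2.91, 2.30 and 0.846 CPM at day 19. The change of -2.77 (SE 0.65) passed the test (edgeR adjusted p = 0.0282). UBE2C, the ubiquitin-conjugating enzyme of that complex, had 4.27, 2.57 and 4.87 CPM at day 6, 0.632, 0.456 and 0.361 CPM at day 16, and 1.55, 3.39 and 0.635 CPM at day 19. Its change was -2.99 (SE 0.64, edgeR adjusted p = 0.0181). For both genes the day 16 libraries lay below all day 6 libraries. Both calls were lost without replicate 1 or 3 of day 6 or any replicate of day 16, with adjusted p of 0.0681 to 0.107 for CDC20 and 0.0565 to 0.077 for UBE2C.

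ESPL1 encodes separase, which cuts cohesin at anaphase, and its change of -1.23 was not called although its libraries did not overlap. ANLN, the anillin of the contractile ring, likewise did not overlap and was not called at -1.96 (edgeR adjusted p = 0.0852). DESeq2 called ANLN lower (adjusted p 0.0165), as did voom, the fit to the 6 libraries of days 6 and 16, and edgeR without replicate 1 of day 19 (adjusted p 0.0271). PRC1, a bundler of midzone microtubules, and ECT2, the exchange factor that places the cleavage furrow, were at -0.65 and -0.72 with overlapping libraries and no call. At day 19, PRC1 had 14.8 CPM in replicate 1 and 2.60 and 1.80 CPM in replicates 2 and 3, so its day 19 mean of 6.39 ± 7.27 CPM rests on that library. Against day 16 its log2 change was 0.69, and -0.83 without that library, with no call in either case.

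**Figure D3:**
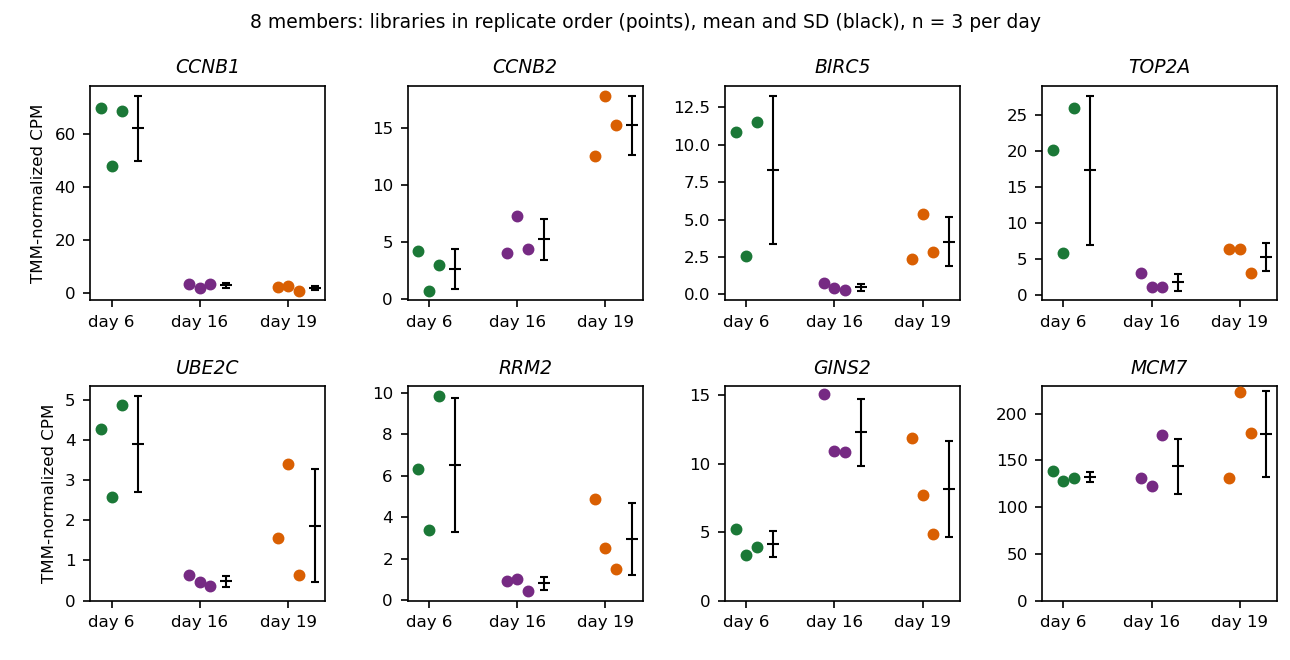
TMM-normalized CPM (vertical axes, each with its own scale) of 8 members by day (horizontal axes); coloured points are the 3 libraries in replicate order, black bars the mean and SD (n = 3). CCNB1 lies between 47.9 and 69.8 CPM at day 6 and between 1.06 and 3.61 CPM later, CCNB2 is highest at day 19, GINS2 has its highest mean at day 16, and MCM7 overlaps between days.

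Of the 16 replication members, all tested, 1 rose at day 16 (6.25%) and 1 fell (6.25%), near the 5.12% and 3.74% of all genes. Their median log2 change was -0.37, with 10 of 16 negative. CDC6 and CCNE2 passed the low-count filter only with their day 6 libraries, so the counts for this class are a description. At an unadjusted p under 0.05, 6 were lower and 1 higher, where 9.68% of all genes were lower and 11.5% higher. DESeq2 called 3 lower and 1 higher, where it called 6.21% of all genes lower and 7.92% higher. Every day 16 library was lower than every day 6 library for 7 of 16 (43.8%) and higher for 1 of 16, beside 18.8% and 19.9% of all genes. The share lying lower was close to the 46.4% of mitotic members. GINS2, a subunit of the GINS complex that activates the MCM helicase, was the gene that rose. It had 5.20, 3.30 and 3.90 CPM at day 6, 15.1, 10.9 and 10.8 CPM at day 16, and 11.9, 7.69 and 4.87 CPM at day 19. Day 16 lay above day 6 with no overlap, and the change was 1.57 (SE 0.36, edgeR adjusted p = 0.025). The call was lost without any of the 6 libraries of days 6 and 16 (adjusted p 0.051 to 0.107).

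No MCM helicase subunit was called. MCM7 had 138, 128 and 131 CPM at day 6, 131, 123 and 177 CPM at day 16, and 131, 223 and 180 CPM at day 19. The days overlapped, and its log2 change at day 16 was 0.12 (SE 0.22). The log2 changes were 0.10 for MCM2, 0.08 for MCM4, 0.02 for MCM5 and -0.28 for MCM3, and the sign of MCM2, MCM5 and MCM7 turned when single libraries were left out, that of MCM5 also under upper quartile scaling. MCM6 averaged 39.3 ± 6.76 CPM at day 16, against 61.6 ± 6.09 CPM at day 6 (SD, n = 3 each). Its libraries did not overlap and its change of -0.65 (SE 0.18) lay at the threshold, with an adjusted p of 0.0509 in edgeR and 0.00716 in DESeq2. Reads of MCM6 may be split with the MCM6-like row LOC106501910, and both together summed to 45.7 ± 7.63 CPM at day 16, against 71.0 ± 6.6 CPM at day 6. PCNA, the sliding clamp, averaged 26.3 ± 2.70 CPM at day 16, against 31.7 ± 3.67 CPM at day 6, and was not called although its libraries did not overlap. The loading factors CDC6 and CDT1, which bring MCM to origins, were at -1.95 and -0.53 without a call.

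Among the genes of nucleotide supply, RRM2 was called and its partner RRM1 was not. They form ribonucleotide reductase, the enzyme that makes deoxynucleotides. RRM2, its radical-bearing small subunit, had 6.31, 3.40 and 9.85 CPM at day 6, 0.948, 1.03 and 0.451 CPM at day 16, and 4.86, 2.5 and 1.48 CPM at day 19. Day 16 lay below all other libraries, and RRM2 fell by 3.01 on the log2 scale (SE 0.60, edgeR adjusted p = 0.0134). Its adjusted p was 0.0602 without replicate 3 of day 6, and 0.0528 and 0.0564 without replicates 1 and 3 of day 16. RRM1, the large subunit, had 54.1, 65.7 and 68.4 CPM at day 6, 46.3, 38.4 and 50.3 CPM at day 16, and 45.1, 60.9 and 52.5 CPM at day 19. RRM1 also did not overlap between day 16 and day 6, but its change of -0.48 (SE 0.19) was not called (edgeR adjusted p = 0.166). The difference between the subunits was not tested. TYMS, thymidylate synthase, was not called at 0.02, a value whose sign turned under upper quartile scaling and voom.

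Among the genes of G1 to S control, none was called at day 16. CDK2, the kinase of S phase entry, had 23.9, 18.2 and 22.2 CPM at day 6, 13.6, 15.1 and 18.2 CPM at day 16, and 16.9, 15.4 and 14.6 CPM at day 19, with a change of -0.45 (SE 0.20). Its day 16 libraries lay only just below those of day 6. E2F1, the activator of many replication genes, averaged 1.62 ± 0.675 CPM at day 16, against 5.19 ± 3.12 CPM at day 6. Its change of -1.67 was not called in edgeR (adjusted p = 0.119), although its libraries did not overlap, and was called in DESeq2 (adjusted p = 0.044). CCNE2, which encodes cyclin E2, was at -0.91 with overlapping libraries.

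Day 19 against day 16 shares the day 16 libraries with the comparison above, so the changes of the same genes are not independent. No member was called in edgeR, among 28 mitotic and 16 replication members, where 0.516% of all genes tested rose and 0.683% fell. At an unadjusted p under 0.05, 8 mitotic members were higher and 0 lower, and 4 replication members were higher and 1 lower, where 13.5% of all genes were higher and 11.0% lower. DESeq2 called TPX2, BIRC5, CCNB2, MCM3 and RRM2 higher, where it called 6.00% of all genes higher and 4.91% lower. The median log2 change was 0.87 for mitotic members, with 25 of 28 positive, and 0.32 for replication members, with 13 of 16 positive, against 0.01 for all genes. Every day 19 library was above every day 16 library for 8 mitotic and 5 replication members, where 11.9% of all genes were, and below for 1 member, CCNE2, where 12% of all genes were. Macrophage markers summed to 650 to 838 CPM at day 19, against 394 to 488 CPM at day 16, and endothelial markers to 666 to 761 CPM at day 19, against 1102 to 1384 CPM at day 16, with no overlap for either. Smooth muscle markers were also apart, at 24359 to 38838 CPM at day 19, against 19118 to 20376 CPM at day 16. The part of these shifts in the changes of the members was not tested.

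BIRC5 had the largest change among the members, 2.84 (SE 0.69), with 3.53 ± 1.64 CPM at day 19, against 0.488 ± 0.235 CPM at day 16 (SD, n = 3 each, edgeR adjusted p = 0.0713). CCNB2 averaged 15.2 ± 2.62 CPM at day 19, against 5.21 ± 1.81 CPM at day 16, a change of 1.55 (SE 0.49, edgeR adjusted p = 0.117). TPX2 averaged 14.0 ± 1.34 CPM at day 19, against 6.77 ± 1.04 CPM at day 16, a change of 1.05 (SE 0.33, edgeR adjusted p = 0.111). RRM2 was at 1.87 and UBE2C at 1.93, neither with a call. For MCM3, the means were 78.3 ± 4.18 CPM at day 19 and 54.8 ± 5.14 CPM at day 16, with a change of 0.51 (SE 0.16, edgeR adjusted p = 0.106). CCNB1 was among the 3 mitotic members with a negative change, -0.63 (SE 0.36), without a call.

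The number of calls at day 19 against day 16 moved with every single library left out. Without any library other than replicate 1 of day 19, 0 members were called. At most 0.0244% of all genes were then called higher and 0.0733% lower. Without replicate 1 of day 19, 5 mitotic members were called higher (TPX2, BIRC5, FOXM1, CCNB2 and UBE2C), 4 replication members higher (MCM7, MCM3, PCNA and CDT1) and GINS2 lower, but 21.6% of all genes were then called higher and 23.1% lower. Without replicate 1, BIRC5 had an edgeR adjusted p of 0.00792, CCNB2 of 0.0234 and TPX2 of 0.0249.

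**Figure D4:**
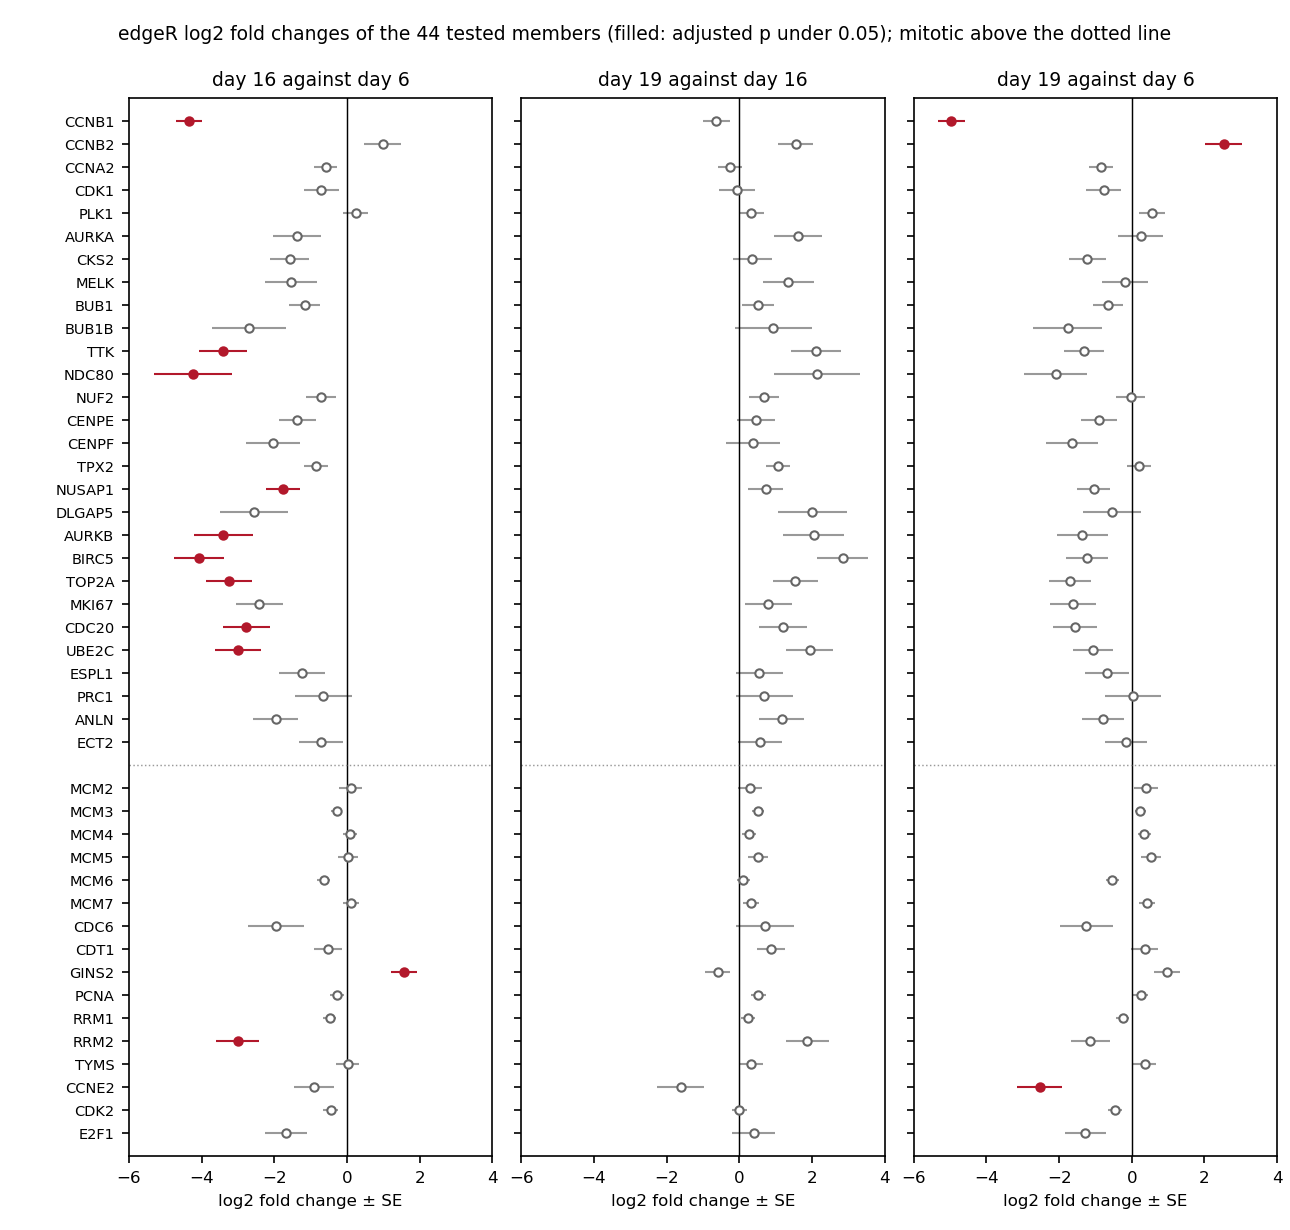
Log2 fold change ± SE (horizontal axes) of the 44 tested members (vertical axis, mitotic above and replication below the dotted line) at day 16 against day 6, day 19 against day 16 and day 19 against day 6, from the same edgeR fit. Filled red points passed an adjusted p of 0.05: 11 members in the left panel, 0 in the middle and 3 in the right, where CCNB1 at -4.97 and CCNB2 at 2.53 lie on opposite sides of 0.

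Day 19 against day 6 used the same day 6 libraries as the first comparison. Of 28 mitotic members 1 rose and 1 fell, and of 16 replication members 0 rose and 1 fell, where 12.7% of all genes tested rose and 10.2% fell. The share of mitotic members called, 3.57% in each direction, was below that of all genes. The replication member that fell, CCNE2, passed the low-count filter only with its day 6 libraries, as did some mitotic members, named above. The counts in this comparison are therefore a description. Without replicate 1 of day 19, 2 mitotic members were called higher and 5 lower, and 2 replication members higher and 4 lower, when 27.2% of all genes were called higher and 27.0% lower. The median log2 change was -0.88 for mitotic members and 0.24 for replication members. Every day 19 library was above every day 6 library for 1 mitotic and 2 replication members, where 19.6% of all genes were, and below for 3 mitotic and 3 replication members, where 18.9% of all genes were. Summed markers of macrophages were at 650 to 838 CPM at day 19, against 251 to 491 CPM at day 6. Endothelial markers were at 666 to 761 CPM at day 19, against 836 to 1044 CPM at day 6, and those of stromal fibroblasts at 19194 to 28543 CPM at day 19, against 29193 to 32234 CPM at day 6. None of the 3 marker sums overlapped between these days, and their part in the changes of the members was not tested.

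The B cyclins changed in opposite directions between days 6 and 19. CCNB1 averaged 1.96 ± 0.804 CPM at day 19, against 62.0 ± 12.3 CPM at day 6, and fell by 4.97 on the log2 scale (SE 0.37, edgeR adjusted p = 8.64e-05). CCNB2 averaged 15.2 ± 2.62 CPM at day 19, against 2.61 ± 1.75 CPM at day 6, and rose by 2.53 (SE 0.52, edgeR adjusted p = 0.00851). Both calls held without each of the 9 libraries, with changes of -5.21 to -4.67 for CCNB1 and 2.09 to 3.03 for CCNB2.

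CCNE2 fell at day 19. It had 18, 9 and 29 reads at day 6, 15, 5 and 8 reads at day 16, and 3 reads in each day 19 library, or 1.67, 0.927 and 2.83 CPM, 1.58, 0.570 and 0.721 CPM, and 0.291, 0.300 and 0.317 CPM. The day 19 libraries lay below all others, and the change against day 6 was -2.53 (SE 0.62, edgeR adjusted p = 0.0183). CCNE2 reached the low-count filter's cutoff in 2 day 6 libraries, 1 day 16 library and 0 day 19 libraries. It therefore needed its day 6 libraries to be tested, so this fall is a description. The call was lost without replicate 3 of day 6 (0.0794), replicate 2 of day 19 (0.0622) or replicate 3 of day 19 (0.056). TOP2A at -1.71 (edgeR adjusted p = 0.0596) and MCM6 at -0.53 (0.0543) were not called, and DESeq2 called both lower (adjusted p 0.0162 and 0.0201). DESeq2 also called MKI67 and CDC20 lower and GINS2 higher (adjusted p 0.0358, 0.0432 and 0.0428), which edgeR fitted to all 9 libraries did not. Without replicate 1 of day 19, edgeR called MKI67 (adjusted p 0.00194), CDC20 (0.0342), TOP2A (0.0482) and MCM6 (0.0181) lower, and without replicate 3 of day 19 it called GINS2 higher. In DESeq2, 16.8% of all genes tested were called higher and 13.8% lower in this comparison.

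An F test over the 3 days in the same fit, which does not choose a pair of days, called 10 of 28 mitotic and 4 of 16 replication members, where 19.6% of all genes were called. The 10 include TTK, NDC80, AURKB and UBE2C, which could pass the low-count filter only through day 6. These had to be higher at day 6 to be tested, so the mitotic count is a description. The 4 replication members include CCNE2, which needed its day 6 libraries to pass the filter, so that count is a description too.

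A list of other cell cycle genes held 123 with a row and 115 tested. At day 16 against day 6, 4 rose and 11 fell. Of 52 other mitotic genes, 1 rose and 8 fell, of 43 other replication genes 1 rose and 2 fell, and of 20 regulators and inhibitors of G1 to S 2 rose and 1 fell, where 5.12% of all genes rose and 3.74% fell. Which genes of this list passed the low-count filter only through day 6 was not examined. These counts therefore describe the genes tested. Each of the 4 genes that rose had no overlap. CCND3, which encodes the G1 cyclin D3, averaged 221 ± 49.8 CPM at day 16, against 91.2 ± 9.77 CPM at day 6, and rose by 1.28 (SE 0.20, edgeR adjusted p = 0.00382). CDKN1A encodes p21, an inhibitor of CDKs, and averaged 33.3 ± 8.08 CPM at day 16, against 15.4 ± 0.752 CPM at day 6, a rise of 1.11 (SE 0.22, adjusted p = 0.0134). POLD3, a subunit of DNA polymerase delta, rose by 0.99 and WEE1, the kinase that holds CDK1 inactive, by 1.27. The calls of CCND3 and POLD3 held without each library, CDKN1A lost its call without any replicate of day 6 or replicate 2 of day 16 (0.0548 to 0.0628), and WEE1 without any replicate of day 6 or replicate 2 or 3 of day 16 (0.0533 to 0.0994).

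Those that fell at day 16 included SPAG5, a spindle protein, by 3.21, and KIF20A, a cytokinesis kinesin, by 3.34. CDCA3, a trigger of mitotic entry, fell by 4.04, the kinetochore subunit SPC24 by 2.72 and the condensin subunit NCAPG by 2.00. Among replication genes, UHRF1, which keeps DNA methylation through replication, fell by 2.15, and CLSPN, a mediator of the replication checkpoint, by 2.47. CDC25A, the phosphatase that activates CDK2, fell by 2.09. SPAG5 averaged 0.844 ± 0.141 CPM at day 16, against 7.91 ± 3.42 CPM at day 6, and UHRF1 3.35 ± 0.838 CPM at day 16, against 14.9 ± 4.87 CPM at day 6. The calls of SPAG5 and UHRF1 held without each library (adjusted p up to 0.0135 and 0.042). CDCA3 and KIF20A lost theirs without replicate 1 or 3 of day 6 or of day 16 (0.054 to 0.0777 and 0.0546 to 0.0733), and CDCA3 changed by -5.07 without replicate 2 of day 16. CLSPN lost its call without any of the 6 libraries of these days (0.0623 to 0.169), SPC24 without those 6 or replicate 3 of day 19 (0.0501 to 0.165; the change was -3.54 without replicate 2 of day 16), NCAPG without replicate 1 or 3 of day 6 or any of day 16 (0.0907 to 0.141), and CDC25A without replicate 1 or 2 of day 6 or any of day 16 (0.0503 to 0.0789).

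At day 19 against day 16, 0 of the 115 were called in edgeR. DESeq2 called 9 higher and 1 lower, where it called 6.00% of all genes higher and 4.91% lower. At an unadjusted p under 0.05, 24 were higher and 3 lower, beside shares over all genes of 13.5% higher and 11.0% lower. At day 19 against day 6, 12 rose and 11 fell, near the 12.7% and 10.2% of all genes. CDKN1A averaged 57.0 ± 9.72 CPM at day 19, against 15.4 ± 0.752 CPM at day 6, and rose by 1.88 (SE 0.22, edgeR adjusted p = 0.000622). CCND3 averaged 304 ± 16.6 CPM at day 19, against 91.2 ± 9.77 CPM at day 6, and rose by 1.74 (SE 0.20, adjusted p = 0.00054). CCND1, which encodes the G1 cyclin D1, averaged 38.3 ± 5.94 CPM at day 19, against 70.6 ± 9.59 CPM at day 6, and fell by 0.88 (SE 0.18, adjusted p = 0.00924). CCND2 and the CDK inhibitor CDKN1B were not called in any comparison, with means of 88.2 to 108 CPM and 71.3 to 82.6 CPM over the 3 days. CDKN1C was not analysed here.

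Further genes that rose at day 19 were RFC2, of the clamp loader, by 1.86, PTTG1, the separase inhibitor securin, by 1.83, GINS3, of the GINS complex, by 1.62, MYBL2, a factor of mitotic gene transcription, by 1.47, SKA2, a kinetochore protein, by 1.31, and DUT, which removes dUTP, by 1.11. Reads of GINS3 may be split with rows described as similar to PSF3, another name of its protein. RFC2 had 47.9 CPM in replicate 1 of day 19, against 134 and 141 CPM in replicates 2 and 3, and still lay above all day 6 libraries, at 25.9 to 33.8 CPM. CIT, the citron kinase of cytokinesis, fell by 3.24, UHRF1 by 2.10, SPAG5 by 1.96, CDC25A by 1.79, NCAPG by 1.59, CKAP2, a spindle-associated protein, by 1.5, and TIMELESS, of the replication fork protection complex, by 0.98. The change of CIT was -4.85 without replicate 1 of day 19, and that of MYBL2 was 0.82 without replicate 2 of day 19 (adjusted p 0.0965).

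The calls of CDKN1A, CCND3, CCND1, RFC2, GINS3, SKA2, CIT, UHRF1, SPAG5 and TIMELESS at day 19 against day 6 held without each library. MYBL2 also lost its call without any replicate of day 6 (0.0788 to 0.109), PTTG1 without any replicate of day 6 or replicate 2 or 3 of day 19 (0.0598 to 0.098), and DUT without any library but replicate 1 of day 19 (0.0522 to 0.124). CDC25A lost its call without replicate 1 or 2 of day 6 or replicate 2 or 3 of day 19 (0.0509 to 0.0645). CKAP2 lost its call without replicate 1 or 3 of day 6 or replicate 2 or 3 of day 19 (0.0836 to 0.112), and NCAPG without replicate 1 or 3 of day 6, any of day 16, or replicate 2 or 3 of day 19 (0.0533 to 0.152).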

How the data were processed

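Raw read counts per gene, as whole numbers, were deposited by the authors in 1 table with 1 column per library. Per the labels' protocols, RNA was extracted with Trizol, selected for poly(A), cut with RNase III and ligated to Ion adaptors. How reads were aligned and counted, and against which build and annotation, is not given in the sources used here, so similar or overlapping genes may share reads.

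Counts were tested with edgeR 4.0.16 (R 4.3.3): TMM (trimmed mean of M-values) scaling, filterByExpr on the day (16098 of 25671 rows kept), a robust quasi-likelihood fit to all 9 libraries with the day as the only term, and Benjamini-Hochberg adjustment over all genes tested. The standard error was the log2 fold change divided by the square root of F. The common biological coefficient of variation was 0.318. Libraries of a day differed beyond sampling noise (lowest chi-square per degree of freedom 9.86), so all were kept. Intervals at 95% and the floor of 3 counts, 0.270 to 0.342 CPM, cover counting error only. All 46 members are accounted for. Values in every library are given for members called in any comparison and, in a role group with fewer than 2 of these, for the member of highest mean CPM. Other cell cycle genes are named if called at a mean log2 CPM not under 1, up to 8 per direction by size, and D-type cyclins and CDKN1A, CDKN1B and CDKN1C in any case. Members and lists were chosen with earlier results of these data known. DESeq2 1.42.0, limma 3.58.1 (voom), other scalings and filters and leaving out each library were alternatives. The script was tested on simulated counts. Sequences and promoter motifs were not analysed here.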

Additional observations from a re-analysis of the deposited data

How the results depend on the processing

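In FOXM1, TTK and NDC80 each day 16 library held 3 reads or fewer, so the size of these changes is uncertain. The same holds for the change of CCNE2 at day 19, where each library held 3 reads. The counts given in the report moved with the tool, the fit and single libraries as follows, and the cause was not tested except where fewer genes or libraries entered by construction. At day 16 against day 6, edgeR called 1427 genes, DESeq2 2274, voom with quality weights 3811 and a fit to the 6 libraries of these days 3092. Of mitotic members (9 called), a filter of at least 1 CPM in at least 6 libraries left 5, with fewer members tested. Of replication members (2), DESeq2 and voom called 4 each. Of other cell cycle genes (15), DESeq2 called 25, voom 32 and the 6 libraries 25. At day 19 against day 16, edgeR called 193 genes, DESeq2 1756, voom 7354 and the 6 libraries 0. Of mitotic members (0), DESeq2 called 3 and voom 2. Of replication members (0), DESeq2 called 2 and voom 5, with a median change of 0.49 in voom against 0.32. Of other cell cycle genes (0), DESeq2 called 10, voom 33, the stricter filter 2 and the fit without robust estimation 1. At day 19 against day 6, edgeR called 3684 genes, voom 9433 and the 6 libraries 2357. Of mitotic members (2), DESeq2 called 5 and voom 10. Of replication members (1), DESeq2 called 3, voom 6, upper quartile scaling 2, and the stricter filter and the 6 libraries 0 each. Of other cell cycle genes (23), voom called 56 and the 6 libraries 14. The F test called 14 members, voom 23 and the stricter filter 9.

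Leaving out 1 library at a time, calls at day 16 against day 6 ranged over 664 to 3345 genes, 2 to 12 mitotic members, 0 to 4 replication members and 5 to 34 other cell cycle genes. At day 19 against day 16 they ranged over 0 to 7331, 0 to 5, 0 to 5 and 0 to 33, and at day 19 against day 6 over 1928 to 8891, 2 to 7, 0 to 6 and 12 to 51. The F test called 2 to 26 members. In each of the 3 comparisons, the highest of these counts came without replicate 1 of day 19. The median change of mitotic members ranged over -1.99 to -1.47, 0.61 to 1.18 and -1.20 to -0.61 in the 3 comparisons, and that of replication members over -0.40 to -0.29, 0.23 to 0.43 and 0.065 to 0.32. The mitotic minus the replication median lay between 0.64 and 1.17 at day 6, between -0.77 and -0.54 at day 16, and between -0.27 and 0.04 at day 19. No change of a called member turned its direction in these alternatives, while uncalled changes near 0 did for some members. The direction of other called cell cycle genes was followed only with 1 library left out, where none turned.

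Replicate numbers did not pair the libraries: correlations of deviations between libraries with the same number were -0.164 to 0.153, and 2 of 9 libraries correlated best with their own number. With the replicate number as a block, 0 genes were called at day 19 against day 16 and 8 members in the F test, and of the 11 members called at day 16 against day 6, 8 kept their call and MKI67 gained it.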

Other observations

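Further cell cycle genes passed edgeR's test without being among those named above. KIF2C, a kinesin that takes microtubules apart at kinetochores, had 0.105, 0.456 and 0.361 CPM in the day 16 libraries, against 3.06, 1.75 and 2.83 CPM in the day 6 libraries. It fell by 3.01 on the log2 scale (SE 0.53, adjusted p = 0.00761), and the call held without each of the 9 libraries. CDCA2, which guides a phosphatase to chromosomes at mitotic exit, fell by 3.30 at day 16 (adjusted p = 0.0252). Its call was lost without replicate 1 or 3 of day 6 or any replicate of day 16 (0.0741 to 0.105), and the change was -2.71 without replicate 1 of day 6.

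At day 19 against day 6, E2F4, a member of the E2F family that binds pocket proteins, averaged 96.9 ± 9.85 CPM at day 19, against 55.8 ± 1.60 CPM at day 6 (SD, n = 3 each), and rose by 0.80 (adjusted p = 0.0132). Its DNA-binding partner TFDP1 averaged 22.9 ± 4.61 CPM at day 19, against 39.3 ± 3.16 CPM at day 6, and fell by 0.78 (adjusted p = 0.0213). POLD3 rose by 0.83 (adjusted p = 0.0108), and POLA2, a subunit of DNA polymerase alpha, fell by 0.78 (adjusted p = 0.0212). RPA1, which coats single-stranded DNA, fell by 0.62, while RFC3 of the clamp loader rose by 0.74 and ORC4 of the origin recognition complex by 0.72. The call of POLD3 held without each library. Those of E2F4 (lost without replicate 1 or 3 of day 6, 0.0527 to 0.0544), TFDP1 (replicate 2 or 3 of day 6 or of day 19, 0.0574 to 0.0817) and POLA2 (replicate 1 or 3 of day 6 or replicate 2 of day 19, 0.062 to 0.0809) did not. RPA1 lost its call without replicate 2 or 3 of day 6 or of day 19 (0.0621 to 0.0985), RFC3 without any replicate of day 6 or replicate 2 or 3 of day 19 (0.0715 to 0.111), and ORC4 without any library of days 6 and 16 or replicate 2 of day 19 (0.0652 to 0.142).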
